A study of Mus musculus with 4 samples.

Results

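Transcripts for subunits of the proteasome were followed in the lung carcinoma line H460, an established human cell line, 4 h after farnesol was added. Members were all non-control probes of the array whose gene name is PSM, a letter from A to F and a number. They came to 63 probes of 43 genes, among 41000 probes with 30729 gene names on the array. Cells received 250 µM farnesol, an isoprenoid alcohol of the mevalonate pathway, or the vehicle dimethyl sulphoxide alone. Both groups were grown in the same serum-containing medium, and a single cell line was used. There were duplicate experiments, and the RNA of each farnesol culture was hybridised against its matched vehicle RNA on 2 arrays of opposite dye orientation. This makes 2 replicates of 2 arrays each, and p-values measure only the spread between these 2 experiments. Although the organism label of the samples is the mouse, the protocols give the human line and the gene names on the array are human.

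The proteasome is the cell's main protease for proteins tagged with ubiquitin. Its core is a barrel of alpha rings (PSMA genes), which gate the entrance, around beta rings (PSMB genes), which hold the cutting sites. A regulatory particle caps the barrel: its base holds a ring of ATPases (PSMC genes) that unfold the substrate and push it in, and its base and lid also hold non-ATPase subunits (PSMD genes) that bind ubiquitin and remove it. Other activators (PSME genes) and the factor PSMF1 bind the core in place of that particle. The genes for these subunits are expressed in nearly all cells, and are known to be regulated together when the proteasome is blocked.

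Of the 43 genes, 41 were measured well enough to be tested, through 60 probes. All 60 probes were well above background in both channels on all 4 arrays, and none was saturated. PSMA8, an alpha subunit of the testis, and PSMD15 were not well above background in either channel on any array, and neither was 1 of the probes of PSMD9. The array's description of PSMD15 is that of a putative peroxisome protein, which goes against its gene name. Across the array, 82.7% to 93% of spots in each channel passed the flag for signal above background, and 19 to 51 were saturated. All 4 epithelial markers looked for (KRT8, KRT18, TACSTD1 and CDH1) were well above background on all arrays in at least 1 probe. So were all 4 leukocyte markers, all 3 fibroblast markers and 2 of 3 endothelial markers, and these flags therefore do not separate cell types here. The median log2 ratio of farnesol over vehicle was -0.28 for the epithelial, 0.13 for the leukocyte, 0.08 for the fibroblast and 0.04 for the endothelial markers, none of which passed the test. Their part in the results below was not tested.

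Proteasome transcripts were lower with farnesol in nearly every subunit measured, by a modest factor. The log2 ratio was below 0 on all 4 arrays for 37 of the 41 tested genes, against 21.9% of all 28302 tested features, where a feature is the brightest tested probe of a gene name. It was above 0 on all 4 arrays for 0 of the 41, against 20.9% of all features. The other 4 genes, PSMB10, PSMD7, PSMD14 and PSME4, had arrays on both sides of 0. Over the 41 genes the median log2 ratio was -0.36, a 1.29-fold lower level, with -0.24 in replicate 1 and -0.45 in replicate 2. The median of all features was 0.01, both in the mean and in each replicate. The lowest value was that of PSMD12 (-1.48), the highest that of PSME4 (0.06), and the middle of the range, between the quartiles, ran from -0.54 to -0.25. RNA was taken from whole cultures, so fewer cells with the transcript and less of it per cell cannot be told apart.

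No member passed the test at the threshold used. With limma, which tested the mean of 2 replicates against 0 using Benjamini-Hochberg adjustment over all features, 0 of 41 genes had an adjusted p under 0.05, and their adjusted p ran from 0.191 to 0.885. Among all features 0% passed as lower and 0.0106% as higher, which is 3 features. At an unadjusted p under 0.05, 30 of 41 members were lower and 0 higher, against 10.8% and 3.71% of all features. When the 4 arrays entered the fit with the RNA pair as a random block, 21 of 41 members passed as lower, against 7.59% of all features. That fit draws part of its error from dye-swapped arrays of the same RNA. The counts and medians of subgroups and lists below are therefore descriptions, to be read against 21.9% of all features below 0 on all 4 arrays, 20.9% above, and a median of 0.01.

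**Figure D1:**
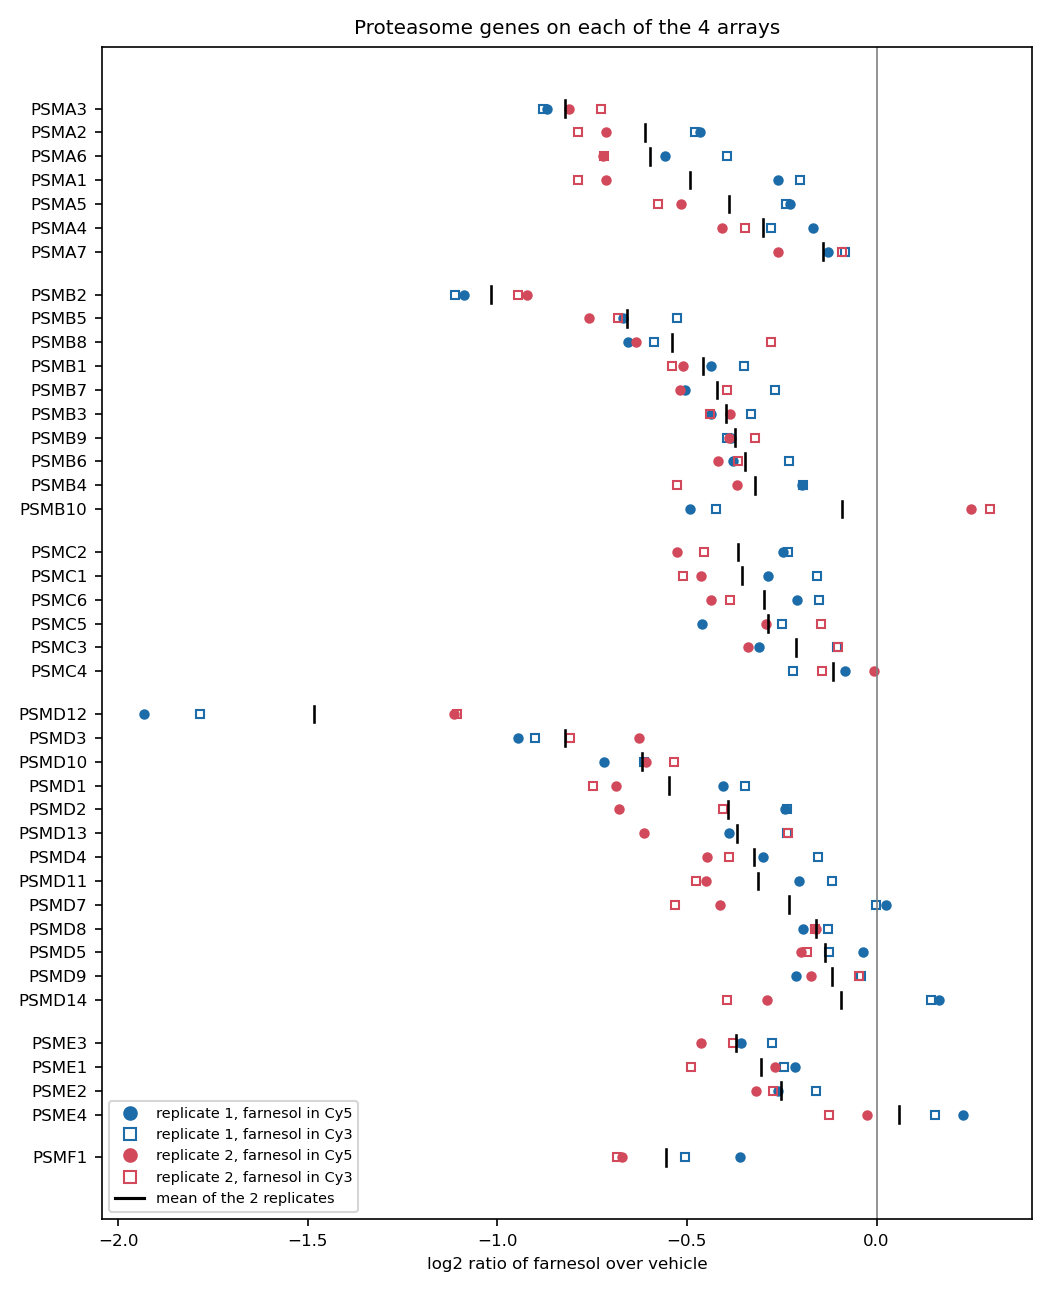
The log2 ratio of farnesol over vehicle (horizontal axis) of each tested proteasome gene (rows, by subgroup) on each of the 4 arrays; circles are arrays with farnesol in Cy5, squares arrays with farnesol in Cy3, colours the replicates and black bars the mean of the 2 replicates. Markers lie left of 0 on all 4 arrays in 37 of the 41 rows, and PSMD12 lies farthest to the left.

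The alpha ring, whose members gate entry to the barrel, was lower throughout: all 7 tested PSMA genes were below 0 on all 4 arrays. Their median log2 ratio was -0.49, with -0.23 in replicate 1 and -0.72 in replicate 2, so the size of the difference was not the same in the 2 experiments. Here and below, array values are given with the Cy5-labelled farnesol array of a replicate before the Cy3-labelled one. PSMA3 had normalised intensities of 2594 and 2465 in farnesol cells of replicate 1 and 2159 and 1713 in those of replicate 2, against 4734, 4539, 3786 and 2833 in the matched vehicle cells. Its farnesol channel was below every matched vehicle channel, and the 4 log2 ratios of -0.87, -0.88, -0.81 and -0.73 lay close together. The mean was -0.82 ± 0.08 (SD, n = 2, as for all values below), a 1.77-fold lower level with limma adjusted p = 0.191. PSMA2 had log2 ratios of -0.47 and -0.48 in replicate 1 and -0.71 and -0.79 in replicate 2, with a mean of -0.61 ± 0.20 (adjusted p = 0.217). PSMA6 followed with -0.56, -0.39, -0.72 and -0.72, a mean of -0.60 ± 0.17 (adjusted p = 0.210). In PSMA2 and PSMA6 both arrays of replicate 2 were below both arrays of replicate 1, and in PSMA3 they were above them.

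PSMA1 and PSMA5 showed the gap between experiments most clearly. PSMA1 had -0.26 and -0.20 in replicate 1 and -0.71 and -0.79 in replicate 2 (mean -0.49 ± 0.37), and its 95% interval, from -1.03 to 0.05, included 0. PSMA5 had -0.23 and -0.24 in replicate 1 and -0.52 and -0.58 in replicate 2 (mean -0.39 ± 0.22). PSMA4 was nearer to 0, with -0.17, -0.28, -0.41 and -0.35 and a mean of -0.30 ± 0.11. The smallest difference of the ring was that of PSMA7, whose values of -0.13, -0.08, -0.26 and -0.09 gave a mean of -0.14 ± 0.05 (adjusted p = 0.450). These 7 subunits sit side by side in 1 ring, yet their mean log2 ratios ran from -0.82 to -0.14.

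Among the beta subunits, 9 of 10 PSMB genes were below 0 on all 4 arrays, and their median log2 ratio was -0.41 (-0.39 in replicate 1 and -0.45 in replicate 2). PSMB2, a beta subunit without a cutting site, was the lowest. Its normalised intensities were 751 and 721 in farnesol cells of replicate 1 and 620 and 527 in those of replicate 2, against 1595, 1558, 1174 and 1016 in the vehicle cells. The log2 ratios of -1.09, -1.11, -0.92 and -0.95 gave a mean of -1.02 ± 0.12, a 2.02-fold lower level (adjusted p = 0.191, 95% interval -1.26 to -0.77). The other subunits without a cutting site were PSMB1 (-0.44, -0.35, -0.51 and -0.54, mean -0.46 ± 0.09), PSMB3 (-0.44, -0.33, -0.39 and -0.44, mean -0.40 ± 0.02) and PSMB4 (-0.20, -0.19, -0.37 and -0.53, mean -0.32 ± 0.18). In PSMB3 the 2 experiments differed by less than its dye-swapped arrays did.

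The 3 subunits that cut in the constitutive core were lower on every array. PSMB5, which carries the chymotrypsin-like site that bortezomib binds, had -0.67 and -0.53 in replicate 1 and -0.76 and -0.68 in replicate 2, with a mean of -0.66 ± 0.09 (1.58-fold lower, adjusted p = 0.192). PSMB7, with the trypsin-like site, had -0.51, -0.27, -0.52 and -0.39 and a mean of -0.42 ± 0.05 (adjusted p = 0.200). PSMB6, with the caspase-like site, had -0.38, -0.23, -0.42 and -0.37 and a mean of -0.35 ± 0.06 (adjusted p = 0.223). The order of the 3 was the same on every array, and the differences between them were not tested. Their 95% intervals, -0.87 to -0.44 for PSMB5, -0.61 to -0.23 for PSMB7 and -0.55 to -0.15 for PSMB6, overlap. Each interval is for a gene taken alone, so the overlap does not decide whether the genes differ.

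In the immunoproteasome, the form in which interferon-induced subunits replace the constitutive cutting subunits, 2 of 3 genes were lower on all 4 arrays. PSMB8, which takes the place of PSMB5, had -0.66, -0.59, -0.63 and -0.28 and a mean of -0.54 ± 0.12 (adjusted p = 0.199). PSMB9, which takes the place of PSMB6, had -0.38, -0.39, -0.39 and -0.32 and a mean of -0.37 ± 0.02 (adjusted p = 0.207). PSMB10, which takes the place of PSMB7, went opposite ways in the 2 experiments. Its normalised intensities were 1379 and 1403 in farnesol cells of replicate 1, against 1939 and 1881 in the vehicle cells, and 1994 and 1701 in farnesol cells of replicate 2, against 1679 and 1383 in the vehicle cells. Its log2 ratios were thus -0.49 and -0.42 in replicate 1 and 0.25 and 0.30 in replicate 2, and the mean of -0.09 ± 0.52 carries no direction (adjusted p = 0.885). The dye-swapped arrays gave the same sign within each experiment. The median of the 3 immunoproteasome genes was -0.37, and that of PSMB5, PSMB6 and PSMB7 was -0.42; the difference between these medians was not tested.

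All 6 ATPases of the base were lower on all 4 arrays, by small amounts. The median log2 ratio of the PSMC genes was -0.29, with -0.21 in replicate 1 and -0.32 in replicate 2. PSMC2 had the lowest mean, with -0.25 and -0.23 in replicate 1 and -0.53 and -0.46 in replicate 2 (mean -0.36 ± 0.18, adjusted p = 0.294). PSMC1 was close to it, with -0.29, -0.16, -0.46 and -0.51 (mean -0.35 ± 0.19), as was PSMC6, with -0.21, -0.15, -0.44 and -0.39 (mean -0.30 ± 0.16). In these 3 genes both arrays of replicate 2 were below both arrays of replicate 1. PSMC5 did not share that order, with -0.46, -0.25, -0.29 and -0.15 and a mean of -0.29 ± 0.10. PSMC3 had -0.31 and -0.34 on the arrays with farnesol in Cy5 and -0.10 and -0.10 on those with farnesol in Cy3, so its dye orientations differed more than its experiments did (mean -0.21 ± 0.01). PSMC4 was nearest to 0, with -0.08, -0.22, -0.01 and -0.14, a mean of -0.11 ± 0.05 and adjusted p = 0.509.

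The non-ATPase subunits held the widest range of all subgroups. Of 13 tested PSMD genes, 11 were below 0 on all 4 arrays, and the median log2 ratio was -0.32 (-0.23 in replicate 1 and -0.46 in replicate 2). PSMD12, a scaffold subunit of the lid, was the lowest member of the whole set. It had normalised intensities of 422 and 494 in farnesol cells of replicate 1 and 609 and 516 in those of replicate 2, against 1609, 1701, 1318 and 1113 in the vehicle cells. No farnesol value reached any vehicle value. The log2 ratios were -1.93 and -1.78 in replicate 1 and -1.11 and -1.11 in replicate 2, with a mean of -1.48 ± 0.53, a 2.80-fold lower level (adjusted p = 0.212, 95% interval -2.24 to -0.73). It was the only member at least 2-fold lower in both replicates, a size that 0.24% of all features reached. None was 2-fold higher in both, against 0.65% of all features. PSMD3, another lid subunit, came next with -0.95, -0.90, -0.63 and -0.81 and a mean of -0.82 ± 0.15 (1.77-fold lower, adjusted p = 0.192).

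The other lid subunits were nearer to 0, and the lid as a set of 7 PSMD genes had a median of -0.31. PSMD13 had -0.39, -0.24, -0.61 and -0.23 (mean -0.37 ± 0.08, adjusted p = 0.223), while PSMD11 and PSMD8 averaged -0.31 ± 0.21 and -0.16 ± 0.00. PSMD14 is the enzyme that removes ubiquitin chains from a substrate before it enters the core, and PSMD7 is the subunit it pairs with. Both turned on which experiment was read. PSMD14 had 0.16 and 0.14 in replicate 1 and -0.29 and -0.40 in replicate 2 (mean -0.09 ± 0.35, adjusted p = 0.831), so that it had no direction in common. PSMD7 had 0.02 and -0.00 in replicate 1 and -0.41 and -0.53 in replicate 2 (mean -0.23 ± 0.34, adjusted p = 0.586). In both genes the values clearly below 0 all came from replicate 2.

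The 3 base subunits among the PSMD genes were lower on all 4 arrays, with a median of -0.39. PSMD1 and PSMD2 are the large scaffold subunits, and ubiquitin-bearing shuttles dock on PSMD2. PSMD1 had -0.40, -0.35, -0.69 and -0.75 (mean -0.55 ± 0.24, adjusted p = 0.258), and PSMD2 had -0.24, -0.24, -0.68 and -0.41 (mean -0.39 ± 0.21, adjusted p = 0.309). PSMD4, a receptor for ubiquitin chains, had -0.30, -0.15, -0.45 and -0.39 (mean -0.32 ± 0.14, adjusted p = 0.288). In all 3 genes both arrays of replicate 2 were below both arrays of replicate 1. PSMD5, PSMD9 and PSMD10 are chaperones that help to assemble the base and leave it before the particle is complete. PSMD10 had -0.72, -0.61, -0.61 and -0.53 with a mean of -0.62 ± 0.07 (1.54-fold lower, adjusted p = 0.192), whereas PSMD5 and PSMD9 averaged -0.14 ± 0.08 and -0.12 ± 0.01. The gap between PSMD10 and the other two was larger than their SDs, and was not tested.

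Of the 4 activator genes, 3 were below 0 on all 4 arrays, and the median log2 ratio was -0.28 (-0.22 in replicate 1 and -0.34 in replicate 2). PSME1 and PSME2 encode the paired subunits of the interferon-induced PA28 ring. PSME1 had -0.22, -0.24, -0.27 and -0.49 (mean -0.30 ± 0.10, adjusted p = 0.272), and PSME2 had -0.26, -0.16, -0.32 and -0.27 (mean -0.25 ± 0.06, adjusted p = 0.281). PSME3, which forms the related nuclear ring, had the lowest mean of the subgroup, with -0.36, -0.28, -0.46 and -0.38 (mean -0.37 ± 0.07, adjusted p = 0.221). PSME4, a large activator found on nuclear proteasomes, was the single member with a mean above 0. It had 0.23 and 0.16 in replicate 1 and -0.02 and -0.12 in replicate 2, for a mean of 0.06 ± 0.19 (adjusted p = 0.825), and its mean was -0.11 with median centring of the arrays, so that it has no settled sign. PSMF1, named for its inhibition of the core in the test tube, had -0.36, -0.50, -0.67 and -0.68 and a mean of -0.55 ± 0.17 (1.47-fold lower, adjusted p = 0.218).

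The 2 experiments agreed in direction for most members and differed in size. Both replicate means were below 0 in 37 of 41 members, against 30.2% of all features, and both were above 0 in 0 of 41, against 35.4%. The value was lower in replicate 2 than in replicate 1 for 30 of the 41 members, against 13822 of the 28302 features. PSMD12, PSMB2, PSMA3 and PSMD3, the 4 members with the lowest means, were all lower in replicate 1 than in replicate 2. Across the 41 members the replicate means correlated at Pearson's r = 0.669 (Spearman's rho 0.667), and at r = 0.509 without PSMD12 and PSMB2. These are correlations across genes of the same 4 arrays, which are not independent. The median gap between the replicates of a member was 0.16 log2 units and the largest, that of PSMD12, was 0.75. The dye-swapped arrays of 1 experiment lay closer, with median gaps of 0.08 in replicate 1 and 0.07 in replicate 2. In 16 of the 41 members, however, a dye-swap gap was larger than the gap between replicates, among them PSMC3, PSMD13, PSMB8 and PSMB7.

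**Figure D2:**
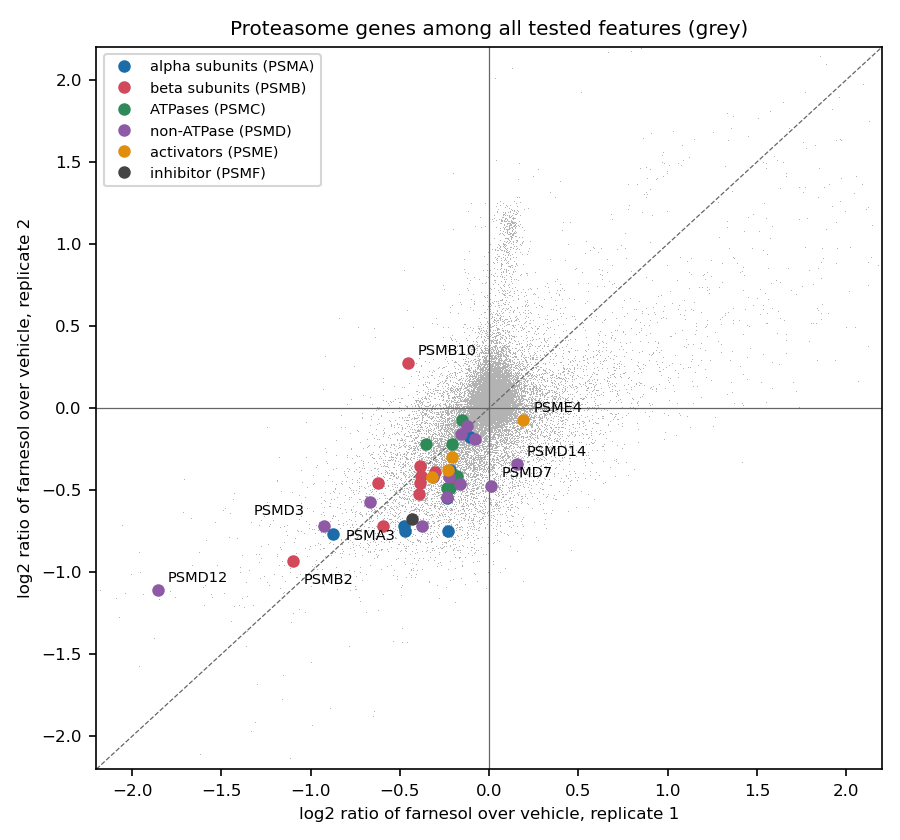
The log2 ratio of farnesol over vehicle in replicate 1 (horizontal axis) and replicate 2 (vertical axis), with tested proteasome genes as coloured points by subgroup, all tested features as grey dots and the dashed line marking equal values. In all, 37 of the 41 genes lie at lower left, below 0 in both replicates, most of them below the dashed line; 149 features beyond 2.2 log2 units lie outside the axes.

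The share of features with 1 sign on all 4 arrays depended on how bright the spots were. Of the 10387 features at least as bright as the dimmest tested member, a limit chosen after the values were seen, 31.3% (3254) were below 0 on all 4 arrays, 2927 were above 0 on all 4, and 18.6% were lower at an unadjusted p under 0.05. Their median log2 ratio was 0.01, as for all features. Among all features, 7.4% had a mean below the members' median of -0.36. With median centring in place of the intensity-dependent loess, the members' median was -0.54, 38 of 41 were below 0 on all 4 arrays and the share of all features was 25.7%. The size of the difference therefore moved with the normalization, whereas the count of members lower on all 4 arrays moved by 1.

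**Figure D3:**
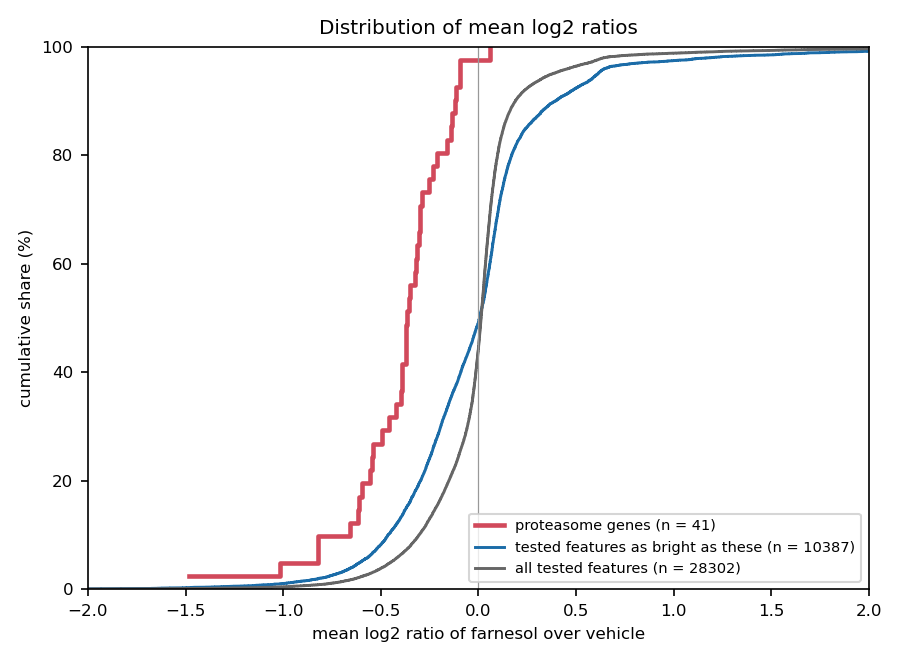
Cumulative share of genes (vertical axis, percent) at or below a given mean log2 ratio of farnesol over vehicle (horizontal axis) for the 41 proteasome genes, for tested features at least as bright, and for all tested features. The red line of the proteasome genes lies to the left, with 97.6% of them below 0, against 44.2% of all features.

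Several members were measured by more than 1 probe, which is no further replicate. The probes of PSMB7, PSMD4, PSME1 and PSME3 are annotated to more than 1 transcript record of the gene, and those of the other genes to a single record each. Of the 60 tested probes, 53 were below 0 on all 4 arrays and 0 were above, against 22.5% of all tested probes below. In 14 genes with more than 1 tested probe, 13 had probes of the same sign. The 3 probes of PSMD12 had means from -1.48 to -1.42, the 3 of PSMC1 differed by less than 0.01, and the 4 of PSMC6 by 0.03. PSMB2 had -1.02 and -0.78, and PSMD3 had -0.82 and -0.56, so that the lowest members were low in every probe. The widest gaps were in PSMF1, with -0.55 in its brightest probe and -0.06 in the other, and in PSMB7, with -0.42 and -0.00. For these 2 genes the ratio depends on the probe read, and for PSMB7 the probes are of different transcript records. The second probe of PSMB7 was also dim, with normalised intensities of 104 to 143, against 2950 to 6880 in the brightest. PSMD5 was the gene whose probes differed in sign, at -0.14 and 0.00, the latter in a dim probe with intensities of 120 to 178. Ratios of dim probes are shrunk by the offset, and its part in these gaps was not tested.

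**Figure D4:**
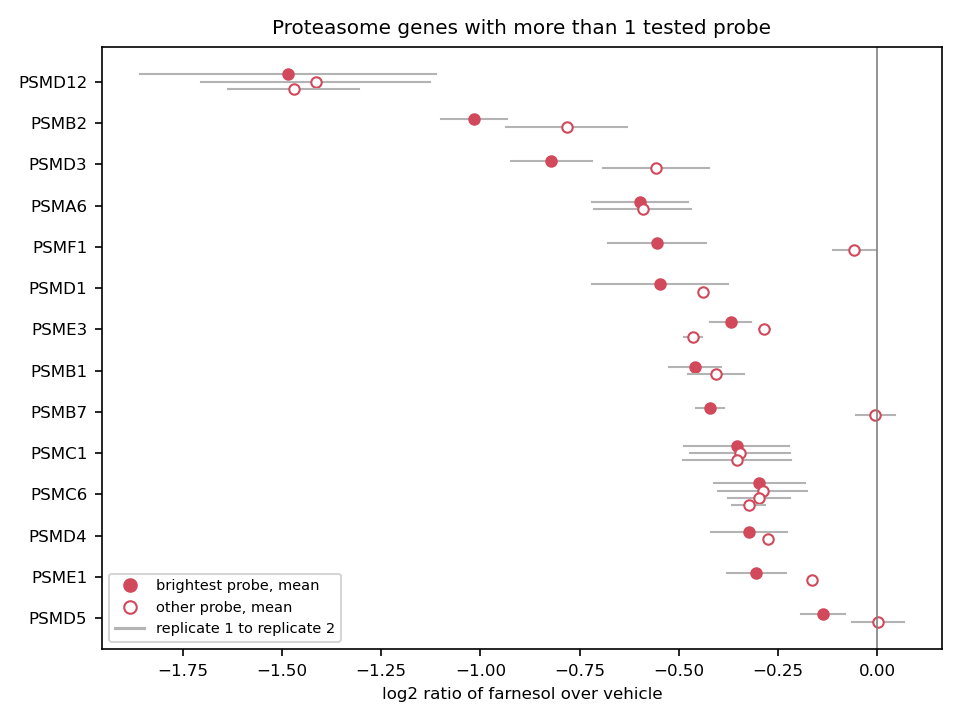
Mean log2 ratio of farnesol over vehicle (horizontal axis) of each probe of the 14 proteasome genes with more than 1 tested probe; filled points are the brightest probe, which stands for the gene, open points the others, and grey lines span the 2 replicates. The 3 probes of PSMD12 lie together at the far left, while the probes of PSMF1 and PSMB7 lie apart.

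The ratios that the authors computed were read as well. The authors' deposited table of linear ratios of farnesol over vehicle lists 7018 probes, all with a deposited p-value of at most 0.001, and follows the replicate 1 arrays (r = 0.9999 with the scanner software's own log ratio, against 0.8321 for replicate 2). It therefore adds no measurement to replicate 1. In the authors' deposited table, 29 probes of 20 proteasome genes appear, where 18.7% of all tested probes are listed, and all 29 have a ratio under 1, where 57.8% of its probes have one. The authors' deposited table gives ratios of 0.159, 0.257 and 0.275 for the 3 probes of PSMD12, 0.458 and 0.506 for PSMB2, 0.555 for PSMA3 and 0.674 for PSMB5. Its highest ratio for a member is 0.868, for PSMC2. In the authors' deposited table PSMB10 has a ratio of 0.740, which is the direction of replicate 1 alone.

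Genes that work with the proteasome were followed through lists. The proteasome's own assembly chaperones were lower as a group in these arrays. All 5 tested genes of that list were below 0 on all 4 arrays and none passed the test, with a median log2 ratio of -0.31 (-0.51 with median centring) and 3 genes under an unadjusted p of 0.05. C13orf12, the array's name for the core maturation factor POMP, averaged -0.31 ± 0.02 (adjusted p = 0.225), TNFSF5IP1, a partner in alpha ring assembly now called PSMG2, averaged -0.23 ± 0.02 (adjusted p = 0.274), and FLJ11848 averaged -0.27 ± 0.01 (adjusted p = 0.244). DSCR2, now PSMG1 and the partner of PSMG2, had -0.10 in replicate 1 and -0.55 in replicate 2.

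Factors that dock on the proteasome or bring substrates to it were mixed. Of 15 tested, 8 were below 0 and 2 above 0 on all 4 arrays, and the median was -0.09. With median centring 10 were below and 1 above, with a median of -0.28, while 5 were below with a normexp offset of 0. UBQLN2, a shuttle that carries ubiquitin-tagged proteins, was the one under an unadjusted p of 0.05, at -0.54 ± 0.35 (adjusted p = 0.334). The values farthest from 0 lay on the other side: ZA20D2, a ubiquitin-binding zinc finger protein, averaged 0.93 ± 0.69 (adjusted p = 0.363), with other probes at 1.20, 1.02 and 1.30. SQSTM1, a receptor for ubiquitin-tagged cargo, averaged 0.55 ± 0.44 (adjusted p = 0.396), and both genes were above 0 on all 4 arrays. In the machinery that extracts substrates from membranes and complexes, 4 of 6 genes were below 0 on all 4 arrays, with a median of -0.19 (-0.36 with median centring and -0.12 when probes are averaged per gene). VCP, its ATPase, had -0.78, -0.67, -0.52 and -0.59 (mean -0.64 ± 0.12, adjusted p = 0.192), with other probes at -0.24 and -0.98. NPL4, a cofactor of VCP, averaged -0.48 ± 0.01 (adjusted p = 0.192), but a second probe had 0.24.

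One ubiquitin gene stood on the other side of 0. UBB, which encodes ubiquitin as head-to-tail repeats, was higher with farnesol on all 4 arrays, though it did not pass the test, with log2 ratios of 0.78, 0.96, 1.20 and 1.39. The farnesol spots of its brightest probe were saturated on all 4 arrays, so its level was at least 2.12-fold higher after loess (adjusted p = 0.197). That bound holds for loess alone, since the mean log2 ratio was 1.08 with it and 0.92 with median centring. Another probe also gave 0.92. RPS27A, which encodes ubiquitin fused to a ribosomal protein, averaged -0.02 ± 0.18 and lay on both sides of 0.

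Transcription factors known to drive proteasome genes gave no common direction. The list of 8 tested genes also holds DDI2, which is not itself a transcription factor and averaged -0.02 ± 0.02. Of the 8, 2 were below 0 and 1 above 0 on all 4 arrays, with a median of -0.01. NFYB, a subunit of the factor that binds CCAAT boxes, averaged -0.37 ± 0.21 (adjusted p = 0.323). NFE2L1, the factor that restores proteasome transcripts when the proteasome is blocked, had 0.15 in replicate 1 and 0.97 in replicate 2 in its brightest probe, while its 3 other probes had 0.00, -0.14 and -0.09. No direction can be read from it.

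Genes that present the peptides cut by the immunoproteasome differed from one another. Of the 8 tested genes of this list, 6 were above 0 and 1 below 0 on all 4 arrays, with a median of 0.36. Those above 0 include IRF1, a transcription factor that presents no peptides itself, at 0.37 ± 0.32 (adjusted p = 0.438). ARTS-1, a trimming peptidase, was not tested. TAP1, a subunit of the peptide transporter, was the gene below 0, with -0.66, -0.58, -0.94 and -0.73 (mean -0.73 ± 0.15, adjusted p = 0.192). HLA-B and HLA-C, which display peptides at the cell surface, averaged 0.37 ± 0.10 (adjusted p = 0.239) and 0.45 ± 0.22 (adjusted p = 0.286). With median centring those values were 0.13 and 0.24, and 0 of the list were above 0 on all 4 arrays, so the higher values of this list depend on the scaling. Probes of these genes can share sequence, so that their values may not be separate measurements.

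**Figure D5:**
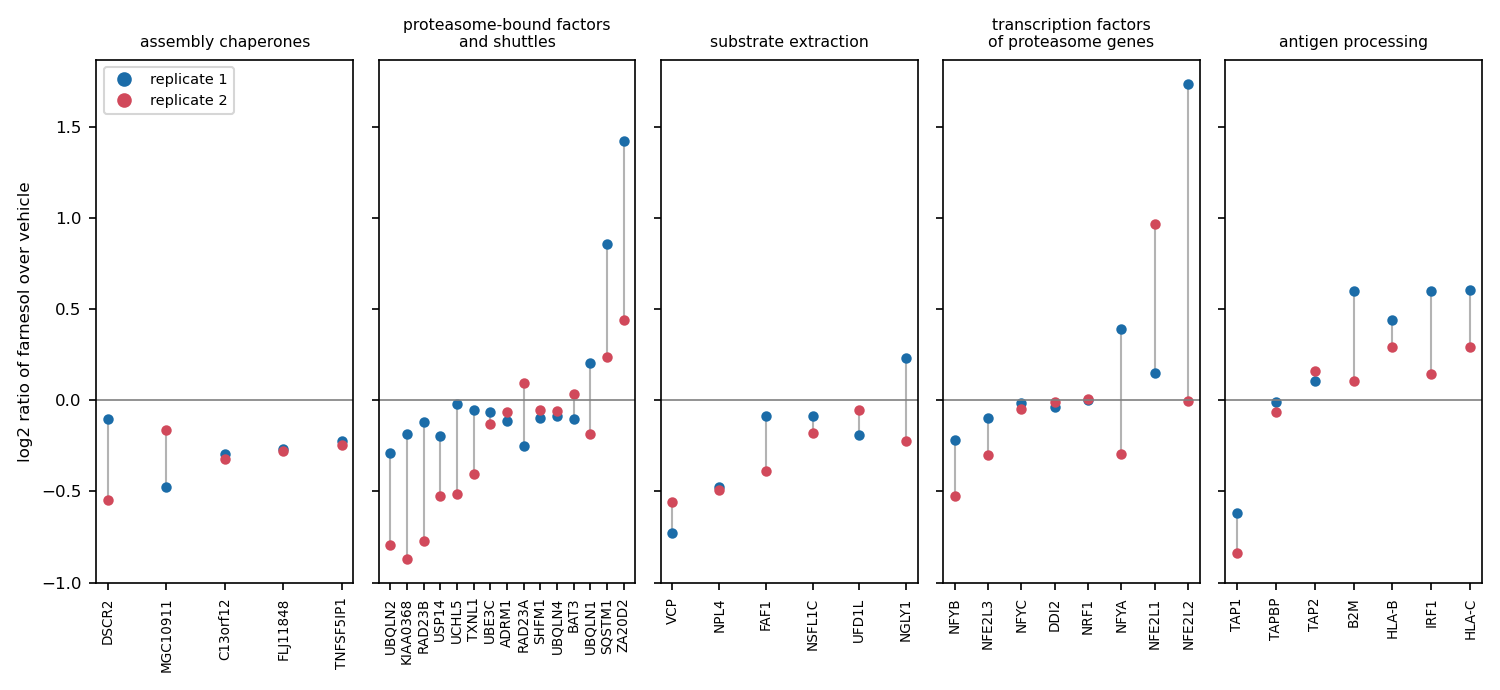
The log2 ratio of farnesol over vehicle (vertical axis) in each replicate for genes of 5 lists around the proteasome, with a grey line joining the replicates of a gene; all tested genes of the first 4 lists and 7 of the 8 of the last are drawn. The 5 assembly chaperones lie below 0 in both replicates, as does TAP1, while HLA-B and HLA-C lie above 0 in both.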

How the data were processed

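Amplified RNA was labelled with Cy3 or Cy5 and hybridised in pairs on oligonucleotide arrays, per the labels' protocols. Scans were read with Agilent Feature Extraction 8.1.1.1, per the file headers. Each deposited intensity is a spot's mean brightness or its local background's median brightness. The deposited log10 ratio came from the scanner software's background-subtracted, dye-normalized values, per the file headers, and further deposited columns were its flags. A list the authors deposited holds a linear ratio and a p-value per probe; how it was made is not given in the sources used here.

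From the intensities, limma 3.58.1 (R 4.3.3, data.table, version 1.17.8) gave normexp-corrected (offset 50), loess-normalized log2 ratios. Control and outlying spots had weight 0 and were left out, and saturated spots were kept. Ratios were turned to farnesol over vehicle, and dye-swapped arrays were averaged, so n = 2. Ratios of dim probes are shrunk by the offset. Tested probes had 1 condition well above background on 1 or more arrays of both replicates, and the brightest tested probe stood for a gene. The test was limma's lmFit and eBayes, two-sided, with Benjamini-Hochberg adjustment over 28302 features and 1 residual and 1.81 prior degrees of freedom. The limma test was tried on simulated replicate values, and the steps before it were not. The number of arrays limits the precision.

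Members named with array values had an unadjusted p under 0.05, the highest or lowest mean of a subgroup, probes over 0.5 apart or replicates over 1 apart, or were not tested. PSMA1 and those whose replicates differed in sign were named after their values were seen. Genes of other lists were named at an unadjusted p under 0.05 or a mean log2 ratio past 1, and others named there were chosen after their values were seen. The members and lists were chosen with earlier results of these data known. Gene symbols, some since renamed, were read from the array files. The reference tables supplied were of the mouse and were not used here, so that no gene position or sequence is given. A few genes of the lists beside the proteasome are not reported here.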

Additional observations from a re-analysis of the deposited data

How the results depend on the processing

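Over 10 other settings of the processing, 35 to 38 members were below 0 on all arrays used, and 0 above; settings with 1 dye orientation used 2 arrays (37 and 38 members, against 30.9% and 31.1% of all features) and the others all 4. Limma called 0 members under each, except with the RNA pair as a random block, which called 21. Members lower at an unadjusted p under 0.05 numbered 19 with offset 0 or the scanner software's ratio and 36 with median centring, against 30. The shares of all features lower at that threshold were 9.69% with offset 0, 10.4% with the scanner software's ratio and 15.3% with median centring, against 10.8%. Over all features, calls numbered 3, with 2 to 72 under the other settings and 2869 with the random block. Median centring moved the medians to -0.54 over all members, -0.62 for PSMB, -0.46 for PSMC, -0.52 for PSMD, -0.47 for PSME genes, turned PSME4 to -0.11, and put 25.7% of all features below 0 and 15% above 0 on all arrays, against 21.9% and 20.9%; the cause was not tested. The mean of the probes gave -0.31 for PSMF1 and -0.21 for PSMB7, whose second probes are near 0. Single experiments, which leave no test, gave 38 to 40 members below 0 and 1 to 2 above 0 on their arrays. Of all features, 33.6% to 38.2% were below 0 and 37.3% to 41.2% above 0 there. Medians in single experiments were -0.45 to -0.24 over all members and -0.32 to -0.21 for PSMC genes. Single experiments gave -0.46 to 0.27 for PSMB10, -0.074 to 0.19 for PSME4, -0.34 to 0.15 for PSMD14 and -0.48 to 0.012 for PSMD7. No separate paired analysis was run, because each farnesol RNA and its matched vehicle RNA share an array. The pairing is already in the ratio that was tested. Slide and scan date were not fitted as blocks, since each slide held 1 array and all arrays were scanned on 1 day. All 41 tested members were well above background, but the ratios of some dim members moved with the offset. With offset 0, PSMF1 had -0.66 and PSMB8 -0.64, against -0.55 and -0.54. The brighter PSMB5 moved toward 0, to -0.63 against -0.66.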

Other observations

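Proteasome transcripts outside the naming rule were also on the array. The probe p44S10, described there as a subunit of the regulatory particle, had log2 ratios of -0.15 and -0.11 in replicate 1 and -0.50 and -0.49 in replicate 2 (mean -0.31 ± 0.26, limma adjusted p = 0.436), which is below 0 on all 4 arrays. A transcript model described as resembling subunit PSMD10 averaged -0.31 ± 0.05 (adjusted p = 0.231), against -0.62 ± 0.07 for PSMD10 itself. The other 5 such transcript models had means from -0.08 to 0.03 and lay on both sides of 0.

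The cytosolic chaperonin, a ring complex that folds actin and tubulin, gave lower values than the proteasome. Of its 9 tested genes, 8 were below 0 on all 4 arrays, with a median log2 ratio of -0.71, and none passed the test. CCT2 averaged -1.25 ± 0.15 (adjusted p = 0.191), CCT4 -0.82 ± 0.10 and CCT3 -0.77 ± 0.15. CCT6B, a form of the testis, had 0.03 ± 0.08. The difference between the complexes was not tested.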
